A study of Sus scrofa with 6 samples.

Results

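Solute carriers are membrane proteins that move amino acids, ions, metals, nucleotides, vitamins and metabolites across the plasma membrane or the membranes of organelles. In the enterocyte, apical and basolateral carriers together take nutrients and salts up from the gut lumen, and the SLC25 family of the inner mitochondrial membrane links the cytosol with the mitochondrial matrix. The members described here are the genes whose symbol in the platform annotation starts with SLC and a number. The glucose transporter family SLC2A and the monocarboxylate transporter family SLC16A are left out. Of 6765 genes with a probe set of 1 symbol, 110 met this rule, and they belong to 35 families. In 38 of them several probe sets were present, of which the brightest by its average of the 6 arrays was taken.

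Expression was measured in IPEC-1 cells, an epithelial cell line from jejunum and ileum of newborn piglets, on 3 arrays of air-liquid interface (ALI) cultures and 3 arrays of submerged membrane cultures (SMC). Both groups were grown on membrane inserts and later kept in serum-free medium, ALI cells under a thin film of liquid and SMC cells under a column of medium. The labels give replicates 1, 2 and 3 of each group the same 3 passages of the cells, 1 passage per number, so that all arrays stand for a single cell line, and p-values refer to the spread between its passages. Values are log2 signals, and all differences are ALI minus SMC. In RNA of whole cultures, fewer cells of a kind and less RNA per cell cannot be told apart.

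By role, 17 members were grouped as amino acid carriers, 26 as ion and metal carriers, 21 as SLC25 carriers and 44 as other carriers. The last group holds nucleotide sugar, vitamin, choline, nucleoside, organic ion and peptide carriers. It also holds carriers of sugars that the rule does not remove, among them SLC5A1, SLC5A4 and SLC5A10 of the sodium-glucose family, SLC50A1, and SLC45A2 and SLC45A3 of the SLC45 family. A further 2 members, SLC9A3R1 and SLC9A3R2, are scaffold proteins named after a sodium-proton exchanger and do not carry solutes. Probe sets that list several symbols were not named, which leaves out SLC12A8 and SLC23A3. On all 6 arrays, 11 of the 110 members fell into the bottom 25% of signals (limits of 4.52 to 4.61), where a signal is not shown to be above background. A mean above 4 was reached by 103 members and a mean above 6 by 75.

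Among the cell type markers, 12 genes of enterocytes and epithelia were measured and none of them was called in the comparison of ALI with SMC cells. EPCAM, an adhesion molecule of epithelia, had mean log2 signals of 13.39 in ALI and 13.32 in SMC cells. The fatty acid binding proteins FABP1 and FABP2 of mature enterocytes lay in the lowest 25% on all arrays. The average log2 signal of the 12 markers was 8.13 to 8.28 in ALI and 8.14 to 8.36 in SMC arrays. It was raised by EPCAM, CDH1, KRT8, KRT18 and KRT19 of epithelia. Their means were 12.23 to 13.66 in ALI and 12.41 to 13.54 in SMC cells. VIL1 had means of 6.12 in ALI and 6.56 in SMC cells, ANPEP had 5.27 and 5.34, and HNF4A had 7.13 and 7.15. DPP4 lay in the lowest 25% on 5 arrays and APOA4 on 3. A free-text note in the sample labels names liver, while the cell line, source and title name IPEC-1 cells or jejunum, so 6 markers of hepatocytes were read too. None was called, and their average was 6.16 to 6.56 in ALI and 6.24 to 6.82 in SMC arrays. ALB, APOA1 and SERPINA1 had means of 8.28, 8.52 and 8.18 in ALI and 8.58, 8.67 and 8.62 in SMC cells. These means were above those of VIL1, ANPEP, HNF4A, DPP4, APOA4, FABP1 and FABP2 and below those of EPCAM, CDH1, KRT8, KRT18 and KRT19. TTR had 5.29 in ALI and 5.05 in SMC cells, CYP2E1 had 4.73 in ALI and 4.69 in SMC cells, and FGB lay in the lowest 25% on all arrays. Their part in the results was not tested. Of 3 endothelial markers, PECAM1 was lower in ALI cells at -0.50, while CDH5 and KDR lay in the lowest 25% on all arrays. The average of these 3 was 4.78 to 4.97 in ALI and 4.94 to 5.21 in SMC arrays. The PECAM1 difference (adjusted p = 0.0448) was not called when any 1 array was left out, and its part in the results was not tested. None of 4 fibroblast and 3 immune markers was called.

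The solute carriers SLC44A4, SLC35A3, SLC50A1 and SLC25A1, were lower in ALI cells and none was higher. In other words 4 of 110 members (3.64%) passed limma's test with a negative difference, against 1.51% of all 6765 genes, and 0 passed with a positive one, against 1.02% of all genes. At an unadjusted p under 0.05, limma gave 8 members as higher and 12 as lower, against 7.10% and 8.91% of all genes. The methods' t-test gave 9 and 7 at this level, against 7.10% and 7.07% of all genes, and 0 of all 6765 genes after adjustment. The unadjusted counts of the 110 members are near these shares. Each of the 4 called members is measured by 1 probe set, and together they make up 3 of the 44 other carriers and 1 of the 21 SLC25 carriers.

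SLC44A4, a choline transporter-like protein that in human colon takes up the phosphorylated form of thiamine, had the lowest difference of the 110 members. Its log2 signal was 8.51, 8.79 and 8.67 in ALI replicates 1 to 3 and 9.55, 9.35 and 9.74 in SMC replicates 1 to 3. All ALI arrays lay below all SMC arrays. The log2 fold change was -0.89 (standard error 0.13, adjusted p = 0.0179), a signal 1.85-fold lower in ALI cells. Within the passages of replicates 1, 2 and 3 the difference was -1.04, -0.57 and -1.07, so that replicate 2 showed the smallest gap. The call was lost without ALI replicate 1 (adjusted p = 0.0883) or SMC replicate 1 (0.0570) and held without each of the other 4 arrays.

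SLC35A3 transports UDP-N-acetylglucosamine into the Golgi, where it is used to build glycans. ALI cells had log2 signals of 9.40, 9.30 and 9.46, and SMC cells had 10.21, 9.87 and 10.23. The ALI arrays were close to each other (SD 0.0805, n = 3) and lay below all SMC arrays (SD 0.202, n = 3). The difference of -0.72 (standard error 0.13, adjusted p = 0.0319) equals a 1.65-fold lower signal. Leaving out ALI replicate 1, ALI replicate 2, SMC replicate 1 or SMC replicate 3 ended the call (adjusted p = 0.119, 0.0909, 0.103 and 0.0830).

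SLC50A1 is the mammalian member of the SWEET family of sugar transporters. Its log2 signal was 9.03, 8.76 and 9.01 in ALI cells and 9.62, 9.44 and 9.78 in SMC cells. The difference of -0.68 (standard error 0.13, adjusted p = 0.0413) was similar in the 3 passages at -0.59, -0.68 and -0.77. It did not pass when any 1 of the 6 arrays was left out (adjusted p from 0.0602 to 0.119). Without SLC50A1, SLC5A1, SLC5A4 and SLC5A10, 3 of the remaining 106 members (2.83%) were lower, against 1.51% of all genes. SLC45A2 and SLC45A3 stayed among these members.

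SLC25A1, the mitochondrial citrate carrier, delivers citrate to the cytosol, where it feeds the synthesis of fatty acids and sterols. ALI arrays had log2 signals of 9.06, 8.92 and 9.14, against 9.77, 9.56 and 9.59 in SMC arrays. The groups did not overlap. The log2 fold change was -0.60 (standard error 0.11, adjusted p = 0.0370), a 1.52-fold lower signal in ALI cells. The call held without ALI replicate 3 (adjusted p = 0.0475) and was lost without any 1 of the other 5 arrays (0.0755 to 0.131).

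**Figure D1:**
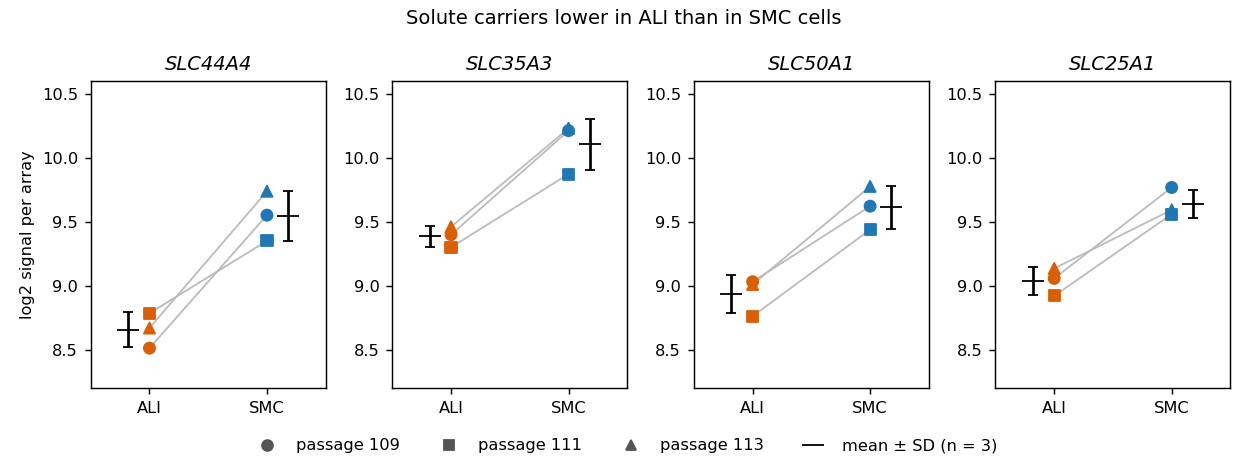
Log2 signal per array of the 4 solute carriers that passed limma's test, with ALI left of SMC in each panel, 1 point per array, a grey line joining arrays of the same passage, and mean ± SD of 3 arrays as black bars. Every line runs upwards to the right, and in each panel the highest ALI array lies below the lowest SMC array.

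When the passage was taken into the fit as a block, 6 members were lower and 1 was higher, against 3.75% and 2.25% of all genes. The same 4 members were among the 6 (adjusted p between 0.00792 and 0.0179). The other two were SLC1A1, a carrier of glutamate and aspartate, and SLC25A36, a mitochondrial carrier of pyrimidine nucleotides. SLC45A3, a member of a family of proton-coupled sugar carriers, was the member that was higher.

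SLC1A1 had log2 signals of 8.10, 8.83 and 7.74 in ALI and 9.13, 9.19 and 8.80 in SMC cells. ALI replicate 2 lay slightly above SMC replicate 3, so the groups touched. The difference was -0.82 (standard error 0.26, adjusted p = 0.184, with the passage block 0.0216), and in the passages it was -1.02, -0.36 and -1.07. Without ALI replicate 2 the fit without the block gave -1.12 (adjusted p = 0.0303).

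SLC25A36 had log2 signals of 7.07, 6.99 and 6.42 in ALI and 7.49, 7.39 and 7.19 in SMC cells. All ALI arrays were below the SMC arrays. Its difference was -0.53 (standard error 0.18, adjusted p = 0.221, with the passage block 0.0411). Without ALI replicate 3, the lowest array, it was -0.33 (adjusted p = 0.245 without the block).

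SLC45A3 had 7.01, 6.89 and 7.31 in ALI and 6.46, 6.61 and 6.64 in SMC cells, again without overlap. The difference was 0.50 (standard error 0.13, adjusted p = 0.122, with the passage block 0.0493), and its second probe set gave 0.46 (adjusted p = 0.0646, with the block 0.0418).

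The classes were compared by the median of their log2 fold changes, which describes the members and was not tested. The median was -0.0085 for amino acid carriers, 0.0083 for ion and metal carriers, -0.039 for SLC25 carriers and 0.028 for other carriers. Over all 110 members it was 0.0058 and over all 6765 genes 0.0090. Taken within each of the 3 passages, the medians ranged from -0.0857 to 0.0463 for amino acid carriers, from 0.0076 to 0.0204 for ion and metal carriers, from -0.0760 to 0.0464 for SLC25 carriers and from -0.0069 to 0.0408 for other carriers. The sign was thus the same in all passages only for the ion and metal carriers, while all genes ranged from -0.0345 to 0.0472. The width of the fold changes is given by the quartiles. Those of the SLC25 carriers were -0.22 and 0.13, and those of the ion and metal carriers were -0.11 and 0.10, while all genes had -0.13 and 0.13.

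The 95% interval of the log2 fold change, not adjusted for the number of genes, lay wholly within a 1.5-fold change in either direction for 22 of 26 ion and metal carriers. This held for 12 of 17 amino acid carriers, 13 of 21 SLC25 carriers and 32 of 44 other carriers, against 76.1% of all genes. For these members a change of more than 1.5-fold lies outside the interval. For the other 29 of the 110 members the arrays leave such a change within reach. All 11 members in the bottom 25% on all 6 arrays had an interval within a 1.5-fold change. They are 4 ion and metal carriers, 2 amino acid carriers, 1 SLC25 carrier and 4 other carriers. Their signal is not shown to be above background, so a narrow interval tells little about these genes.

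A complete separation of the groups was more frequent than a call. In 14 members all ALI arrays lay above all SMC arrays, and in 13 members all lay below. These are 12.7% and 11.8% of the members, while the shares over all genes were 11.0% and 10.9%. By class, 5 of 21 SLC25 carriers, 3 of 17 amino acid carriers, 1 of 26 ion and metal carriers and 5 of 44 other carriers were separated upwards. Separated downwards were 3 SLC25 carriers, 1 amino acid carrier, 3 ion and metal carriers and 6 other carriers.

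**Figure D2:**
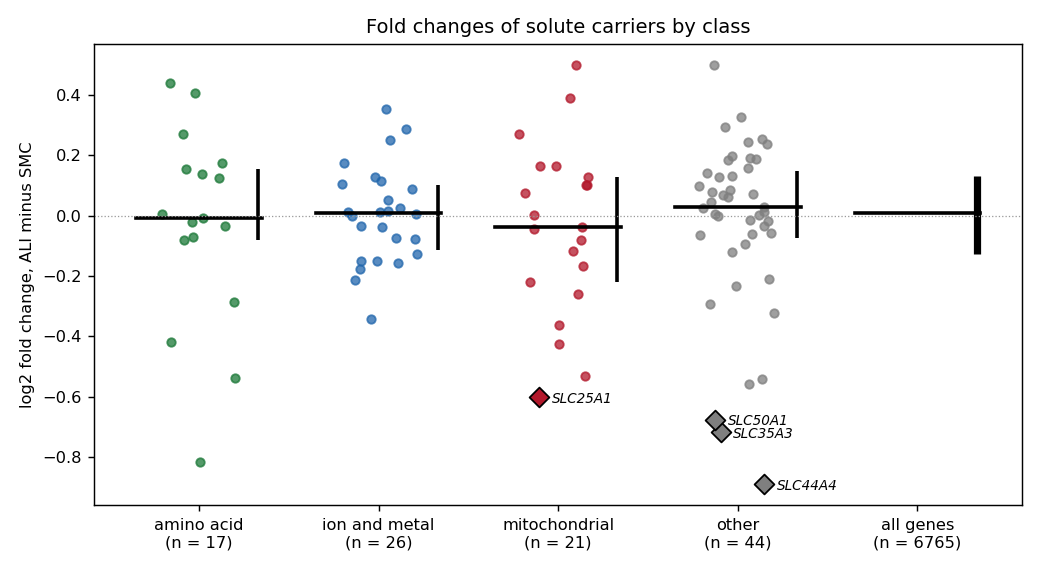
Log2 fold change (ALI minus SMC) of each solute carrier by class, 1 point per gene, with called genes as labelled diamonds, the class median as a horizontal bar and the quartiles as a vertical bar; for all 6765 genes only the median and the quartiles are drawn. The medians lie close to 0 in every class, the points of the ion and metal carriers stay within -0.34 and 0.35, and the 4 diamonds lie at or below -0.60.

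Amino acid carriers supply the cell with building blocks and with glutamine and glutamate as fuels. None of 17 measured members was called. At an unadjusted p under 0.05, 2 were higher and 3 were lower in limma, and 2 were higher and 0 lower in the methods' t-test (all genes 7.10% and 8.91% in limma, 7.10% and 7.07% in the methods' t-test). The 3 lower ones all belong to the SLC1 family of glutamate and neutral amino acid carriers. Besides SLC1A1 these were the glutamate carrier SLC1A2, whose difference was -0.54 (standard error 0.18, adjusted p = 0.201), and the neutral amino acid carrier SLC1A4 with -0.29 (standard error 0.12, adjusted p = 0.339). SLC1A5, the main importer of glutamine in many proliferating cells, had a difference of 0.18 (standard error 0.15, adjusted p = 0.654).

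SLC1A2 had log2 signals of 5.25, 4.97 and 5.49 in ALI and 5.49, 5.82 and 6.02 in SMC cells, with ALI replicate 3 and SMC replicate 1 at nearly the same value. SLC1A5 had 10.06, 10.05 and 9.99 in ALI and 10.04, 10.00 and 9.52 in SMC cells, in which SMC replicate 3 was low and the other 5 arrays were close together. SLC7A1, a carrier of arginine and lysine, had 10.48, 10.06 and 9.66 in ALI and 10.84, 10.30 and 10.32 in SMC cells. Its values overlapped between the groups, and its difference was -0.42 (95% interval -0.94 to 0.10).

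At the upper end of the class were SLC7A4, which is related by sequence to the cationic amino acid carriers, and SLC7A7, which releases arginine and lysine at the basolateral side of enterocytes. SLC7A4 had log2 signals of 9.44, 9.23 and 9.46 in ALI and 8.79, 8.98 and 9.03 in SMC cells. SLC7A7 had 8.05, 8.17 and 8.19 in ALI and 7.52, 7.75 and 7.93 in SMC cells. In both genes all ALI arrays were above all SMC arrays, with log2 fold changes of 0.44 (95% interval 0.17 to 0.71, adjusted p = 0.121) and 0.41 (95% interval 0.12 to 0.70, adjusted p = 0.183). The second probe set of SLC7A7 gave 0.18.

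SLC7A7 works as the light chain of a dimer whose heavy chain is SLC3A2. The heavy chain had a difference of -0.02 (95% interval -0.31 to 0.27). The light chain SLC7A9 and the heavy chain SLC3A1, which form the apical carrier of cystine and basic amino acids, had differences of 0.16 (95% interval -0.10 to 0.41) and -0.08 (95% interval -0.50 to 0.34). The signal of SLC7A9 lay in the lowest 25% on all arrays. SLC38A9, a lysosomal protein that reports arginine to the growth regulator mTORC1, had a difference of -0.04, SLC38A1 had 0.01 and SLC6A14 had 0.14. SLC38A10 had 0.27 (95% interval -0.01 to 0.55), with log2 signals of 7.99 to 8.32 in ALI and 7.73 to 7.94 in SMC arrays.

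Among the ion and metal carriers none of 26 members was called, and at an unadjusted p under 0.05 limma gave 1 as higher and 1 as lower, the methods' t-test 0 and 1, where the shares of all genes were 7.10% and 8.91% in limma and 7.10% and 7.07% in the methods' t-test. The differences ranged from -0.34 to 0.35, and none of them exceeded a 1.5-fold change. SLC26A11, a carrier of sulfate and chloride, was at the lower end. It had log2 signals of 8.74, 8.84 and 8.91 in ALI and 9.07, 9.10 and 9.35 in SMC cells. The groups were separated, the difference was -0.34 (standard error 0.12, adjusted p = 0.220), and its second probe set gave -0.38 (adjusted p = 0.121).

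The sodium-proton exchangers of the SLC9 family regulate cell pH and, in the brush border, sodium uptake. SLC9A5 had log2 signals of 7.57, 7.68 and 7.24 in ALI and 7.20, 7.18 and 7.06 in SMC cells. Its ALI arrays lay above the SMC arrays, and the difference was 0.35 (standard error 0.13, adjusted p = 0.271), while its second probe set gave -0.12. SLC9A3, the exchanger of the enterocyte brush border, had 5.72, 5.45 and 5.70 in ALI and 5.58, 5.13 and 5.30 in SMC cells. The groups overlapped, with a difference of 0.29 (standard error 0.14, adjusted p = 0.409) and of -0.09 in its second probe set. SLC9A4 had -0.08. The scaffold proteins SLC9A3R1 and SLC9A3R2 had -0.17 and 0.13.

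For 4 further carriers of chloride, bicarbonate and phosphate the interval lay inside a 1.5-fold change. The difference was 0.01 (95% interval -0.24 to 0.27) for SLC26A3, the apical chloride-bicarbonate exchanger of the intestine, and 0.11 (95% interval -0.21 to 0.42) for the sodium-bicarbonate cotransporter SLC4A4. SLC34A2, the intestinal sodium-phosphate cotransporter, had 0.09 (95% interval -0.20 to 0.38), and the potassium-chloride cotransporter SLC12A4 had -0.21 (95% interval -0.51 to 0.09). The log2 signals of SLC34A2 were low, at 4.95 to 5.06 in ALI and 4.72 to 5.14 in SMC arrays. SLC26A3 lay in the lowest 25% of the values on all 6 arrays and SLC4A4 on 3 of them, so that for SLC26A3 the array gave no signal above that range in either culture.

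The 13 metal carriers had a median difference of -0.036 and ranged from -0.18 to 0.25. The zinc carriers of the SLC30 and SLC39 families, which export zinc from the cytosol and import it, made up 8 of them. SLC39A1 had log2 signals of 9.93, 9.88 and 10.08 in ALI and 10.09, 10.16 and 10.17 in SMC cells. The groups were separated by a narrow gap, and the difference was -0.18 (95% interval -0.41 to 0.06). SLC39A7, a zinc carrier of the secretory pathway, had -0.15 (95% interval -0.43 to 0.13), and SLC39A4, the carrier of dietary zinc, had 0.01 (95% interval -0.32 to 0.35). SLC39A14, which also takes up iron, had the largest value of this group at 0.25 (95% interval -0.20 to 0.70). Its log2 signal in ALI arrays was 7.04, 6.86 and 6.52, and in SMC arrays 6.94, 6.26 and 6.46, so that replicate 1 was the highest in each culture. The iron carrier SLC11A2 had -0.04 (95% interval -0.34 to 0.26), and the copper importer SLC31A1 had -0.16 (95% interval -0.49 to 0.18).

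**Figure D3:**
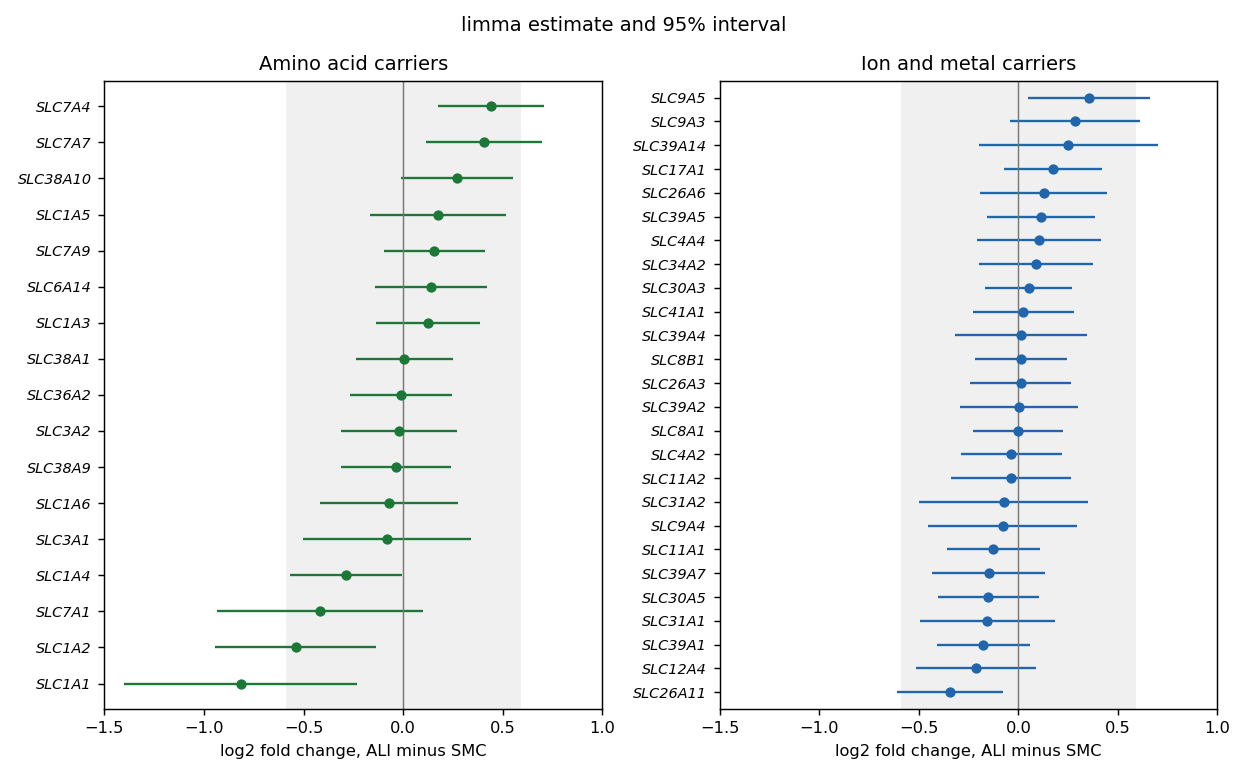
Log2 fold change (ALI minus SMC) of the 17 amino acid carriers, left, and the 26 ion and metal carriers, right, with limma's 95% interval as a line and a 1.5-fold change in either direction as a grey band. None of these members was called, and 22 of the 26 intervals on the right lie within the band, against 12 of 17 on the left. Of those within the band, 4 on the right and 2 on the left belong to members in the lowest 25% on all 6 arrays.

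SLC25 carriers exchange nucleotides, phosphate, keto acids, amino acids and cofactors between cytosol and mitochondrial matrix. Of the 21 measured members 1 was called, SLC25A1. At an unadjusted p under 0.05, limma gave 3 members as higher and 3 as lower, against 7.10% and 8.91% of all genes. The methods' t-test gave 3 and 2, against 7.10% and 7.07% of all genes. The direction was shared by all 3 passages in 14 of the 21 members, 8 lower and 6 higher. This is 38.1% and 28.6% of the family, against 21.0% and 23.2% of all genes and 23.6% and 25.5% of the 110 members. Oxidative phosphorylation is supplied with phosphate and ADP by carriers of this family. SLC25A3, the phosphate carrier, had log2 signals of 13.17, 13.19 and 12.96 in ALI and 13.15, 13.28 and 12.88 in SMC cells, which overlapped, with a difference of 0.0022 (95% interval -0.30 to 0.31). Its second, dimmer probe set gave -0.26. The ADP/ATP exchangers SLC25A4, SLC25A5 and SLC25A6 had differences of 0.10 (95% interval -0.17 to 0.37), -0.17 (95% interval -0.50 to 0.17) and -0.04 (95% interval -0.29 to 0.21).

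Carriers of metabolites and cofactors went in both directions. SLC25A33, which like SLC25A36 carries pyrimidine nucleotides, had log2 signals of 9.19, 8.80 and 8.96 in ALI and 9.51, 9.26 and 9.45 in SMC cells. All ALI values were below the SMC values, and the difference was -0.42 (standard error 0.13, adjusted p = 0.183), while a second probe set gave -0.04. The oxoglutarate-malate carrier SLC25A11 and the aspartate-glutamate carrier SLC25A12, both part of the malate-aspartate shuttle, had 0.13 (95% interval -0.19 to 0.45) and 0.17 (95% interval -0.16 to 0.49).

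The 3 highest members of the family were SLC25A17, SLC25A20 and SLC25A37, and in each of them the ALI arrays lay above the SMC arrays. SLC25A17 is the cofactor carrier of peroxisomes and thus not a mitochondrial protein. It had log2 signals of 11.02, 11.05 and 11.10 in ALI and 10.29, 10.61 and 10.78 in SMC cells, a difference of 0.50 (standard error 0.14, adjusted p = 0.130, with the passage block 0.0507). SLC25A20 brings acylcarnitines into mitochondria for fatty acid oxidation. It had 8.72, 8.84 and 9.08 in ALI and 8.33, 8.48 and 8.66 in SMC cells, a difference of 0.39 (standard error 0.13, adjusted p = 0.235, with the passage block 0.0716) that was nearly the same in the 3 passages at 0.39, 0.36 and 0.42. SLC25A37, an importer of iron into mitochondria, had 7.96, 7.73 and 7.70 in ALI and 7.49, 7.54 and 7.55 in SMC cells, a difference of 0.27 (standard error 0.11, adjusted p = 0.309). Its second probe set gave 0.04.

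**Figure D4:**
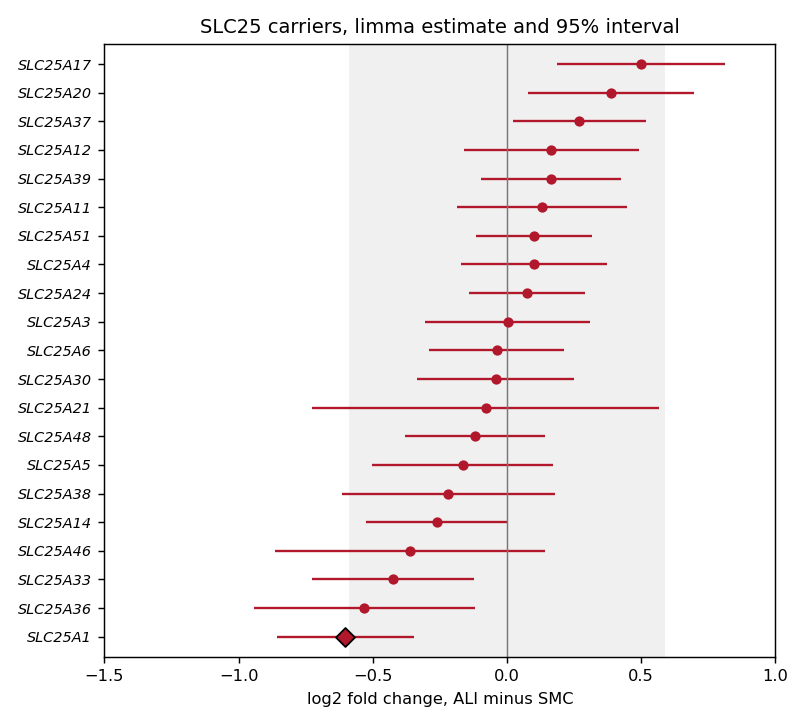
Log2 fold change (ALI minus SMC) of the 21 SLC25 carriers with limma's 95% interval as a line, called members as a diamond and a 1.5-fold change in either direction as a grey band. SLC25A1 at -0.60 is the only diamond, and 13 of the 21 intervals lie within the band.

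The other carriers held SLC44A4, SLC35A3 and SLC50A1, described above. At an unadjusted p under 0.05 limma gave 2 as higher and 5 as lower among the 44 members, and the methods' t-test 4 and 4, again beside 7.10% and 8.91% of all genes in limma and 7.10% and 7.07% in the methods' t-test. SLC35A3 was the only called member of the 10 measured SLC35 carriers, and the median of the family was 0.0033. Some members of this family bring nucleotide sugars into the Golgi and endoplasmic reticulum. SLC5A1, the sodium-glucose cotransporter of the brush border, had log2 signals of 6.13, 6.28 and 6.59 in ALI and 6.59, 7.21 and 6.82 in SMC cells. The highest ALI array and the lowest SMC array had nearly the same signal, and the difference was -0.54 (standard error 0.18, adjusted p = 0.220, with the passage block 0.0787).

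Further nutrient carriers of the intestine were not called. The proton-coupled peptide carrier SLC15A1 had a difference of -0.02 (95% interval -0.26 to 0.23), with 5.19 to 5.27 in ALI and 5.10 to 5.33 in SMC arrays. SLC46A1, which takes up folate, had 8.71, 8.62 and 9.24 in ALI and 8.39, 8.52 and 8.67 in SMC cells, which overlapped, with a difference of 0.33 (95% interval -0.07 to 0.72). Its second probe set gave -0.03. The nucleoside carrier SLC28A1 had 0.29 (95% interval -0.05 to 0.63). Of 27 members listed for their weight in intestine or metabolism, 10 carried no probe set with their symbol and were not analysed here, among them SLC7A5, SLC7A11, SLC6A19, SLC12A2 and SLC40A1.

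For the 38 members with more than 1 probe set, the probe sets of a gene could be set against each other as differences. In 22 genes all of them had the same sign, and in 16 genes they had both. The text gives the further probe sets of only some of these genes. The range of the log2 fold changes within a gene had a median of 0.159 and reached 1.1 in SLC1A1, whose 5 probe sets gave -0.82, -0.61, -0.18, 0.29 and 0.13. The last 2 lay in the lowest 25% on all arrays. The probe set at -0.61 lay there on 1 array. Its adjusted p in limma was 0.171, and 0.0229 with the passage block. In SLC35F5, a member of the SLC35 family, the probe set that stood for the gene gave -0.03 and the others -0.45 and -0.79. The last of these had log2 signals of 5.29, 5.48 and 5.12 in ALI and 5.85, 6.13 and 6.28 in SMC cells and passed the test (standard error 0.15, adjusted p = 0.0387). It passed without SMC replicate 1 (adjusted p = 0.0420) and not without any 1 of the other 5 arrays (0.0522 to 0.175). In the main fit it was the only probe set beyond those standing for the genes that was called, of 164 probe sets of the members.

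**Figure D5:**
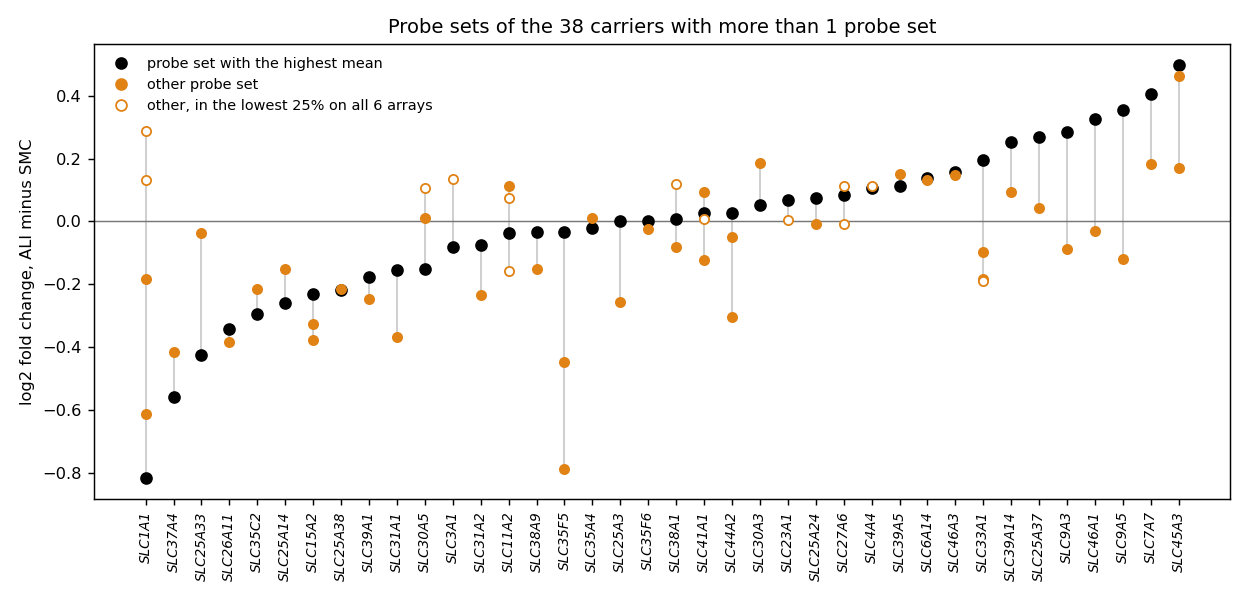
Log2 fold change (ALI minus SMC) of every probe set of the 38 members with more than 1 probe set, 1 column per gene, ordered by the probe set that stood for the gene (black), with other probe sets in orange and those in the lowest 25% on all 6 arrays as open circles. SLC1A1, at the left, and SLC35F5 show the widest spread, while the points of SLC45A3, at the right, lie at 0.50, 0.46 and 0.17.

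Carriers depend on ion gradients, partner proteins and, in mitochondria, on the pores of the outer membrane. Of 10 measured genes of ion gradients and channels none was called, among them ATP1B1, a subunit of the sodium pump, at -0.16 (standard error 0.13) and the chloride channel CFTR at -0.33 (standard error 0.12). Of 11 partners and regulators none was called. TMEM27, a partner of apical amino acid carriers in kidney, had a difference of 0.60 (standard error 0.24, adjusted p = 0.311), which passed with the passage as block (0.0158). Of 13 genes of the mitochondrial membranes 1 was called higher and 1 lower, against 1.02% and 1.51% of all genes. At an unadjusted p under 0.05, limma gave 4 of these 34 genes as higher and 7 as lower, against 7.10% and 8.91% of all genes.

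CPT1A, which makes the acylcarnitines that SLC25A20 carries, averaged 10.68 in ALI and 9.81 in SMC cells, a difference of 0.87 (standard error 0.15, adjusted p = 0.0301). Its call held without SMC replicate 2 (adjusted p = 0.0369) and was lost without any 1 of the other arrays (0.0602 to 0.0936). The lower gene was VDAC3, a pore of the outer membrane, at -0.75 (adjusted p = 0.0348), also held without SMC replicate 2 alone (0.0464, otherwise 0.0709 to 0.131). MPC1, a subunit of the mitochondrial pyruvate carrier, had 0.53 (standard error 0.12, adjusted p = 0.0727, with the passage block 0.0352).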

How the data were processed

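The deposited table holds log2 signals for 24123 probe sets of the GeneChip Porcine Genome Array, 1 column per array. According to the methods, the authors used GCOS and normalized by GC-RMA, while the submitters' processing notes name GCOS 1.1.1 and the table names no normalization or detection call. Normalization of this kind gives all arrays nearly the same distribution (medians 6.33 to 6.38), so a shift common to most genes would not be seen. No sequence is shown, and no further scaling was applied.

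After removal of 124 control probe sets, 23999 were fitted with limma 3.58.1 in R 4.3.3 (lmFit, eBayes) by culture type. P-values were adjusted over all of them by Benjamini-Hochberg, and called means an adjusted p under 0.05. Gene symbols were read from the annotation of the array. Of the 110 member symbols, 109 were found unchanged in the RefSeq table through the Entrez ID. The fit was tested on simulated data. An exact permutation test of 3 against 3 cannot fall below 0.1 and was not used.

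The main fit, its standard errors and its intervals took no account of the passage, which entered only as a block in an alternative fit. The labels give the shared passage. Deviations from the group means correlated at 0.34, 0.14 and 0.451 between replicates 1, 2 and 3 of the same passage (-0.424 to 0.219 otherwise). ALI replicate 2 correlated more with SMC replicate 1 (0.219) than with SMC replicate 2 (0.14). Deviations within a group cancel out, so these correlations are not independent. The block's value is printed where it changes a call, and also for SLC25A17, SLC25A20 and SLC5A1, which it did not bring to a call. Other members near the threshold with the block were SLC25A33 (adjusted p = 0.0589), SLC1A2 (0.0606), SLC7A4 (0.0745) and SLC7A7 (0.0780). Named were called members, the 3 highest and 3 lowest differences and 2 highest means per class, 27 listed carriers, members with another called probe set, and, added after their values were seen, SLC1A4, SLC3A1, SLC6A14, SLC7A9, SLC9A4, SLC31A1, SLC38A1, SLC38A9, SLC25A12, the scaffolds and the genes named beside the carriers. The lists held ion gradients and channels, partners and regulators, mitochondrial membranes and cell type markers. Alternatives were quantile normalization, filters on the mean signal, averaging of probe sets, an intensity trend, the passage block, the methods' t-test and leaving out 1 array. Members and lists were chosen with earlier results of these data known.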

Additional observations from a re-analysis of the deposited data

How the results depend on the processing

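The 3 arrays per group and signals near background limit these results. The count of 4 lower members was 4 after quantile normalization, with a mean above 4 or 6, with probe sets of a gene averaged and with an intensity trend, and 6 with the replicate block by passage. It was 7 with the methods' t-test at an unadjusted p and 0 after its adjustment (478 and 0 of all 6765 genes), 3 without SLC5A1, SLC5A4, SLC5A10 and SLC50A1 (chosen after seeing the data), and 0 to 3 when 1 array was left out. Over all genes, leaving out 1 array gave 29 to 106 lower and 18 to 54 higher genes, against 102 and 69 with all arrays. The lowest count of members, 0, was reached without ALI replicate 1 and without SMC replicate 1, 1 without SMC replicate 3, and 2 without ALI replicate 2 or SMC replicate 2. Higher members numbered 0 in the main comparison, 1 with the replicate block, 9 with the t-test at an unadjusted p, and 0 without any 1 array. Median differences stayed near 0. Leaving out 1 array gave -0.0381 to 0.0610 for amino acid carriers, -0.0175 to 0.0322 for ion and metal carriers, -0.0990 to 0.0630 for SLC25 carriers and -0.0026 to 0.0363 for all members. The ion and metal carriers had -0.0354 among probe sets with a mean above 6, and the cause was not tested. For the 40 members named by rule, 520 values under the alternatives stayed on the same side of a p of 0.05, 21 moved above it and 11 below it. The methods' t-test entered this tally at its unadjusted p, which is no call as defined here. It also entered after its adjustment, where the 4 called members moved above 0.05. The gains of SLC7A4, SLC7A7, SLC26A11, SLC25A17, SLC25A33 and SLC25A37, and a gain of SLC45A3, came only from the t-test at its unadjusted p. None of the values that passed had the opposite sign. The replicate block changed no call of a member other than SLC1A1, SLC25A36 and SLC45A3.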
